A study of Homo sapiens with 12 samples.

Results

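The libraries labelled SOX21-/- and wild type were compared at day 4 of neural differentiation in H9, a widely used line of human embryonic stem cells. The comparison used 4 of the series' 12 libraries, S13 and S23 for SOX21-/- cells and WT1 and WT2 for wild-type cells. Poly(A) RNA was sequenced, and the deposited values were TPM, a gene's share of all transcripts, corrected for transcript length. The members were the 19804 nuclear protein-coding genes among the table's 58219 gene identifiers, without the 13 mitochondrially encoded ones, rescaled so that each library's values added up to 1000000. Of these, 13333 reached a rescaled TPM of at least 1 in at least 2 of the 4 libraries and were tested. The labels do not say how SOX21 was altered, or whether S13 and S23, or WT1 and WT2, were separate clones or cultures. The p-values thus reflect no more than how the 12 libraries spread inside their groups, which may be technical. The number of reads behind each value is unknown. In bulk RNA of this kind, fewer cells of a type and less RNA per cell cannot be told apart.

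SOX21 is a transcription factor of the SOXB group that is made in neural progenitors and acts largely as a repressor. As pluripotent cells enter the neural lineage they switch off genes such as NANOG and take on a position along the head-to-tail axis of the neural tube. Rostral forebrain and eye field cells are marked by SIX3, RAX and LHX2, and WNT signals favour more caudal and dorsal fates, such as the diencephalon and the cortical hem, a WNT-producing edge of the cortex. The series was designed to ask what SOX21 does in early neural differentiation.

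SOX21 itself, at chr13:94709622-94712399 of GRCh38, had a rescaled TPM of 186 in S13 and 164 in S23, against 180 in WT1 and 192 in WT2. The groups overlapped, with a log2 fold change of -0.09 (SE 0.42, adjusted p = 0.932). That SE also holds the spread on other days, such as day 8, where S13 was at 293 and S23 at 82.3. SOX21 mRNA thus did not separate the genotypes, and gene-level TPM does not show whether the transcript was altered. Directions below are therefore those of the libraries labelled SOX21-/-, and SOX21-/- stands for that label throughout.

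The cells of all 4 libraries expressed neural progenitor genes. SOX2, a pluripotency and neural progenitor factor, was at 335 and 463 in S13 and S23, compared with 496 and 491 in WT1 and WT2, and the intermediate filament gene NES was at 363 and 377 against 372 and 407. NANOG was at 0.0917 and 0.119 in the SOX21-/- libraries and at 0.148 and 0.17 in wild type, while at day 0 its range over all 4 libraries was 31.9 to 44.1. Nuclear coding genes took 86.8% to 87.1% of the deposited TPM in the SOX21-/- libraries and 86.7% to 87.0% in wild type. Across the genes tested, Pearson's r on the log2 scale was 0.979 between S13 and S23, 0.988 between WT1 and WT2, and 0.971 to 0.977 between genotypes, as a description of libraries that share all genes.

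Of the 13333 genes tested, 329 differed between the genotypes at an adjusted p under 0.05 (2.47%), of which 75 were higher (0.563%) and 254 lower (1.91%) in SOX21-/- libraries. Adjusted p-values are from limma with Benjamini-Hochberg adjustment over all genes tested, and fold changes are on the log2(rescaled TPM + 1) scale, which understates those of low genes. Among the genes called, 53 of the 75 higher and 79 of the 254 lower ones differed at least 2-fold. The groups did not overlap for any of the 329, but 55.3% of all genes tested also had groups that did not overlap. The median log2 fold change of all genes was -0.127, so the direction of a small change depends on the scaling. With the libraries scaled by the median of their gene ratios, which moved that median to -0.00269, 107 genes were called (0.803%), 77 higher (0.578%) and 30 lower (0.225%). They included 65 of the 75 higher calls and 30 of the 254 lower ones. Single libraries also decided the counts: 24 genes were called without WT1 at day 4, 5 without WT2 at day 4, 103 without S13 at day 4, and 117 and 119 without WT1 or WT2 at day 8. Of 73 called genes that the naming rule took, 3 stayed called without any 1 of the 4 day 4 libraries, and 15 lost their calls whichever of them was left out. At an unadjusted p under 0.05 stood 2792 of the 13333 genes (20.9%).

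**Figure D1:**
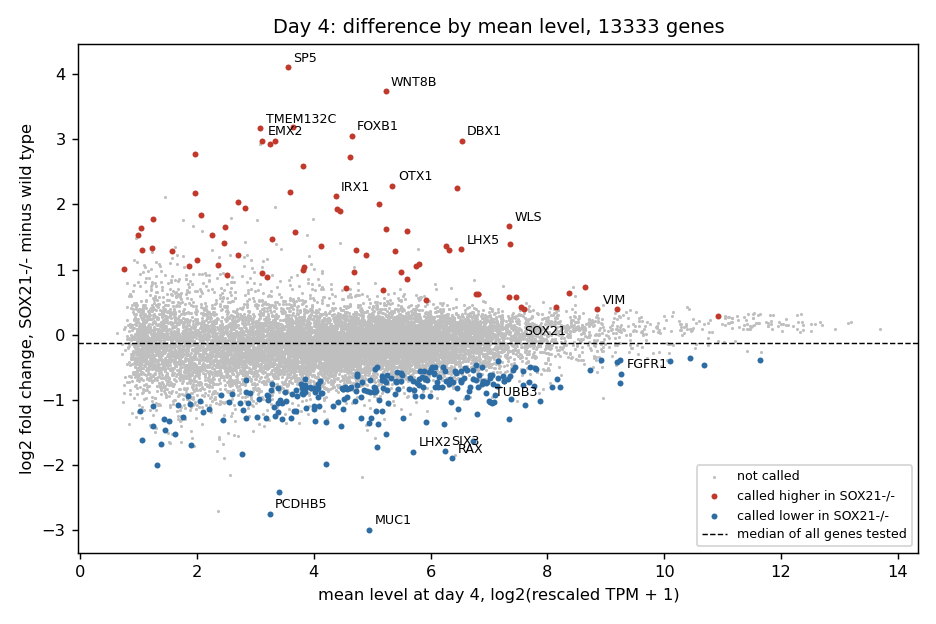
Each point is 1 of the 13333 genes tested, with its mean level at day 4 on the x axis as log2(rescaled TPM + 1) and its log2 fold change, SOX21-/- minus wild type, on the y axis. The 75 genes called higher reach up to SP5 and WNT8B, the 254 called lower lie below the dashed median of -0.127, with a median of their own of -0.82, and SOX21 lies within the grey cloud.

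Of 24 genes of the caudal forebrain and cortical hem in the table, 17 were tested, of which 8 were called higher and 9 did not pass, beside 0.563% of all genes called higher. The list's median log2 fold change was 0.65, against -0.13 over all genes tested. With median-of-ratios scaling, and with a trend on transcript length and GC content removed, 8 of the 17 were again called higher and none lower.

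WNT8B, a WNT ligand of the cortical hem and diencephalon, had a rescaled TPM of 30.8 in S13 and 108 in S23, against 3.19 in WT1 and 3.67 in WT2. Both SOX21-/- libraries lay far above wild type and S23 lay well above S13 (log2 fold change 3.73 with SE 0.48, adjusted p = 0.00705). DBX1, a homeobox gene of neural progenitors that marks parts of the diencephalon, was at 128 and 199 in S13 and S23, compared with 21.0 and 17.9 in WT1 and WT2. Its groups were widely apart, with S23 above S13 and the wild-type pair close together (2.98, SE 0.27, adjusted p = 0.000953). Of the 8 genes, DBX1 alone stayed called without any 1 of the 4 day 4 libraries, with adjusted p up to 0.0297.

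FOXB1, a forkhead gene of the caudal forebrain and hypothalamus, was at 28.2 and 59.7 in S13 and S23, compared with 3.92 and 4.23 in WT1 and WT2 (log2 fold change 3.05, adjusted p = 0.00465). EMX2, a homeobox gene graded towards the caudal and medial cortex, was at 5.84 and 23.5 in the pair labelled SOX21-/-, against 0.762 and 0.538 in wild type (2.98, adjusted p = 0.0143). OTX1, a homeobox gene of forebrain and midbrain, was at 40.4 and 94.3 in the pair labelled SOX21-/-, against 13 and 10.9 in wild type (2.29, adjusted p = 0.00924). In each of these genes S23 was the highest library, and the wild-type pair lay close together.

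IRX1 and IRX2 are Iroquois homeobox genes, expressed caudal to the SIX3 territory. IRX1 was at 38.2 and 27.4 in S13 and S23, compared with 7.52 and 5.80 in WT1 and WT2 (log2 fold change 2.13, adjusted p = 0.00667). IRX2 was at 27.0 and 29.4 in the pair labelled SOX21-/-, against 17.2 and 16.3 in wild type, a smaller difference (0.72, adjusted p = 0.0402). An antisense gene overlaps 20.6% of the exonic bases of IRX1, and without a stated use of strand the reads of this pair cannot be told apart. LHX5, a LIM homeobox gene of the caudal forebrain, was at 102 and 159 in S13 and S23, compared with 54.7 and 46.6 in WT1 and WT2 (1.32, adjusted p = 0.0258).

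Other members of the list did not pass the test. NR2F1 and NR2F2, nuclear receptors that rise towards the caudal cortex, had log2 fold changes of -0.73 (adjusted p = 0.0545) and -0.66 (adjusted p = 0.0955). IRX3 was at 7.84 and 5.59 in S13 and S23, compared with 3.99 and 3.74 in WT1 and WT2, without passing the test (0.65, adjusted p = 0.238). WNT3A, the other hem ligand often used as a marker, was listed at 0 in S13, S23 and WT1 and at 0.0304 in WT2.

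Rostral forebrain and eye field genes were fewer among the calls. Of 17 in the table, 13 were tested, 3 were called lower, 1 was called higher and 9 did not pass. Over all genes tested, 1.91% were called lower and 0.563% higher. A negative log2 fold change was found for 9 of the 13 (69.2%), near the 66.3% of all genes tested. SIX3, a homeobox gene that represses WNT genes in the rostral forebrain of mice, was at 36.3 and 30.4 in S13 and S23, compared with 107 and 127 in WT1 and WT2 (log2 fold change -1.78 with SE 0.22, adjusted p = 0.00683). LHX2, a LIM homeobox gene needed for eye and cortex, was at 21.0 and 23.5 in the pair labelled SOX21-/-, against 69.2 and 91.0 in wild type (-1.79, SE 0.19, adjusted p = 0.00246). RAX, the retinal and hypothalamic homeobox gene, was at 29.1 and 39.3 in the pair labelled SOX21-/-, against 120 and 139 in wild type (-1.90, SE 0.32, adjusted p = 0.022). In these genes every SOX21-/- library lay below every wild-type one by a wide margin.

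SIX3 and LHX2 kept their calls with median-of-ratios scaling (adjusted p = 0.00957 and 0.0031) and with the length and GC trend removed (adjusted p = 0.00638 and 0.0026). RAX kept its call with median-of-ratios scaling (adjusted p = 0.0398) but not with that trend removed (adjusted p = 0.0521). FEZF2, a zinc finger gene of the rostral forebrain, went the other way: it was at 13.4 and 33.3 in S13 and S23, compared with 2.89 and 2.52 in WT1 and WT2 (log2 fold change 2.59, adjusted p = 0.00705). Its paralog FEZF1 was at 333 and 475 in the SOX21-/- libraries, against 504 and 499 in wild type, without passing the test (adjusted p = 0.331).

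**Figure D2:**
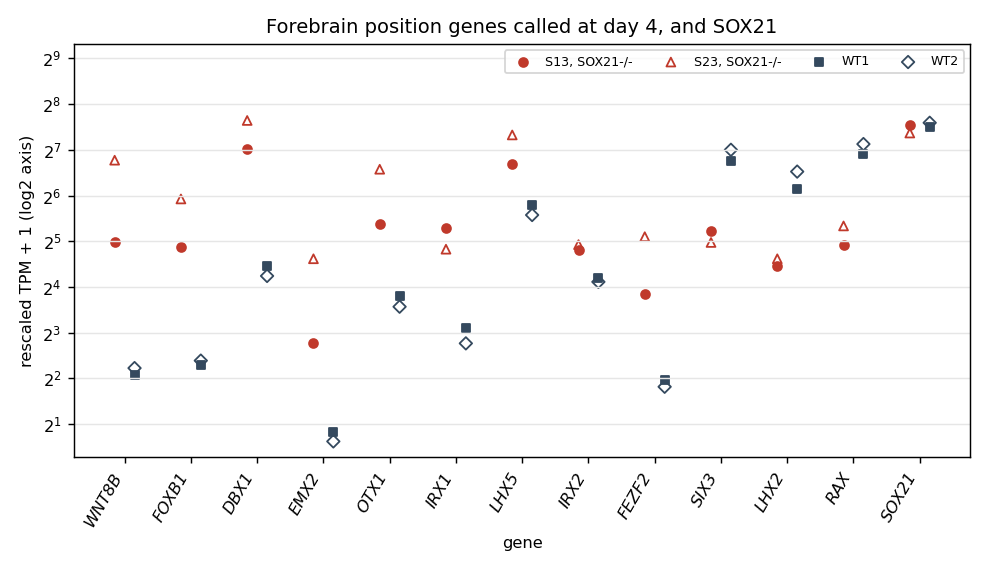
Rescaled TPM + 1 in each day 4 library on a log2 axis, for the 12 genes called in the caudal and rostral forebrain lists and for SOX21, with red circles and triangles for S13 and S23 and dark squares and diamonds for WT1 and WT2. The SOX21-/- libraries stand above wild type from WNT8B to FEZF2 and below it for SIX3, LHX2 and RAX, while the 4 libraries overlap for SOX21.

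The upstream sequences of 4 of these genes are shown for the letters around their starts. WNT8B, DBX1 and IRX1 hold the short motifs searched. LHX2, which was lower, holds none, and neither do some higher genes named below. Each sequence shown is the 250 bases before the RefSeq start, 5′ to 3′ on the gene's own strand, from GRCh38.p14. Capitals mark ACAATG or ACAAAG, core letters bound by SOX proteins, and TCAAAG, core letters bound by TCF and LEF, the nuclear partners of WNT signalling, on either strand.
WNT8B, chr10:100462759-100463008, plus strand: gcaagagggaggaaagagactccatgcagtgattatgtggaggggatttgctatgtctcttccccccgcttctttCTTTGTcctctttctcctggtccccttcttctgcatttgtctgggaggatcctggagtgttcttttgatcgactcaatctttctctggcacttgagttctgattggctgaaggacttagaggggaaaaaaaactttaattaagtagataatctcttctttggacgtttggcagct
DBX1, chr11:20160476-20160725, minus strand: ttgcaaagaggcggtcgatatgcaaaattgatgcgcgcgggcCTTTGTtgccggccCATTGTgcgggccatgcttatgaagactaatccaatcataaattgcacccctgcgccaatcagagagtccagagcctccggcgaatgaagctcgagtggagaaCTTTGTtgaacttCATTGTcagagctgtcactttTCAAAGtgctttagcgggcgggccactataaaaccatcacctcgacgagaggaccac
IRX1, chr5:3595582-3595831, plus strand: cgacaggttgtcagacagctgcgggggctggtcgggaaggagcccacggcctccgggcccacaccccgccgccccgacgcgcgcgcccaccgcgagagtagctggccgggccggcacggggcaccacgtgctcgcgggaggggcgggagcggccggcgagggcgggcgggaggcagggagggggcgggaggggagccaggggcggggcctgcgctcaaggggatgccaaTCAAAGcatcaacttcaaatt
LHX2, chr9:124011518-124011767, plus strand: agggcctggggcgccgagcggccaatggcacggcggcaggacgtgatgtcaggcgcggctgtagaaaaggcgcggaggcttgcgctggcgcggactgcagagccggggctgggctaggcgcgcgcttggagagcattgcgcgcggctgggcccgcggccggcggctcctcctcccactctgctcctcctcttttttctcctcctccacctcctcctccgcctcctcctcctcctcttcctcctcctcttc
RefSeq windows were at hand for 9 of the 12 genes called in the position lists. A SOX motif lay in 2 of the 9, with 4 matches in DBX1 and 1 in WNT8B, against 15% of 15212 windows of 10317 genes tested. The TCF and LEF motif lay in 2 of the 9, with 1 match each in DBX1 and IRX1, against 7.93% of those windows. No match lay in the windows of EMX2, FOXB1, IRX2 and OTX1, which were higher, or of LHX2 and RAX, which were lower. For WNT8B, IRX1 and RAX the letters just after the RefSeq start were not found in the gene's GENCODE transcripts. A match describes letters and no binding, and FEZF2, LHX5 and SIX3 had no window in the table used.

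Neighbouring territories were measured as well. Of 6 midbrain and isthmus genes tested, 1 was called higher, beside 0.563% of all genes tested. This was SP5, a zinc finger factor and a known direct WNT target. It was at 10.7 and 32.1 in S13 and S23, compared with 0.0881 and 0.202 in WT1 and WT2 (log2 fold change 4.11 with SE 0.83, adjusted p = 0.0363), and its call was lost with median-of-ratios scaling (adjusted p = 0.0643). LMX1A, a roof plate and midbrain factor, was at 7.54 and 23.4 in the pair labelled SOX21-/-, against 3.12 and 2.34 in wild type, just short of the threshold (1.96, adjusted p = 0.0527). EN1 and EN2, genes of the midbrain and isthmus region, did not exceed 0.0735 in any of the 4 libraries. HES3, which also marks that region, was expressed in all 4, with values given with day 8 below. All listed HOX genes lay at or below 0.643.

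In the WNT lists few members were called, and over all genes tested 0.563% were called higher and 1.91% lower. At an unadjusted p under 0.05 by limma stood 2 of 6 ligands and 4 of 18 secretion and receptor genes. So did 7 of 11 antagonists (63.6%) and 8 of 15 canonical targets and TCF factors (53.3%), beside 20.9% of all genes tested. Of 6 ligands tested, WNT8B was the 1 called. WNT5B, the ligand with the highest level in all 4 libraries, was at 44.6 and 111 in S13 and S23, compared with 50.2 and 65.9 in WT1 and WT2, with groups that overlapped (adjusted p = 0.706). Of 18 secretion and receptor genes tested, 1 was called: WLS, the carrier that brings WNT proteins to the cell surface, was at 230 and 261 in the pair labelled SOX21-/-, against 89.7 and 65.5 in wild type (log2 fold change 1.66 with SE 0.32, adjusted p = 0.0326). The WLS call was lost whichever of the 4 day 4 libraries was left out, with adjusted p from 0.0743 to 0.268.

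None of the 9 frizzled receptors tested, FZD1 to FZD9, passed the test, with log2 fold changes from -0.43 for FZD2 to 0.46 for FZD9. Among 15 canonical targets and TCF factors, 2 were called higher, SP5 and TNFRSF19, beside 0.563% of all genes tested. TNFRSF19, a receptor of the TNF family reported as a WNT target, was at 24.5 and 40.2 in S13 and S23, compared with 7.46 and 7.57 in WT1 and WT2 (1.93, SE 0.25, adjusted p = 0.00705). AXIN2, a widely used readout of WNT signalling, was at 27.4 and 40.6 in the pair labelled SOX21-/-, against 16.5 and 15 in wild type, with groups apart but an adjusted p of 0.111. LEF1 was at 19.7 and 24.2 in the pair labelled SOX21-/-, against 19.6 and 17.4 in wild type (adjusted p = 0.587).

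Secreted WNT inhibitors differed among themselves. SFRP2 was at 335 and 357 in S13 and S23, compared with 489 and 514 in WT1 and WT2 (log2 fold change -0.53, adjusted p = 0.0249), a call lost with median-of-ratios scaling (adjusted p = 0.0823). DKK1 was at 1.40 in S13 but 28.1 in S23, against 0.0668 and 0.139 in WT1 and WT2 (2.92, adjusted p = 0.0851). RSPO2, a secreted enhancer of WNT signalling outside these lists, was at 21.9 and 62.3 in the pair labelled SOX21-/-, against 4.66 and 4.88 in wild type (2.72, adjusted p = 0.0396), a call lost with median-of-ratios scaling (adjusted p = 0.0623). S23 was the highest of the 4 libraries for WNT8B, SP5, DKK1 and RSPO2.

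Other genes among the highest fold changes had roles outside regional identity. TMEM132C, a membrane protein gene of little known function, was at 10.7 and 17.9 in S13 and S23, compared with 0.629 and 0.670 in WT1 and WT2 (log2 fold change 3.17 with SE 0.24, adjusted p = 0.000726). It stayed called without any 1 of the day 4 libraries, with adjusted p up to 0.0145. PPP1R17, a phosphatase inhibitor known from neurons, was at 17.9 and 25.4 in the pair labelled SOX21-/-, against 1.83 and 1.10 in wild type (3.20, adjusted p = 0.00705). ENPP2, which makes the signalling lipid lysophosphatidic acid, was at 15.9 and 15.5 in the pair labelled SOX21-/-, against 1.75 and 0.768 in wild type (2.92, adjusted p = 0.00813). In these genes both SOX21-/- libraries were clear of both wild-type ones.

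LGI1, a secreted neuronal protein gene, was at 27.5 in S13 and 6.92 in S23, against 0.549 in WT1 and 1.39 in WT2 (log2 fold change 2.97, adjusted p = 0.0329). CNTN2, an axonal adhesion molecule, was at 101 and 190 in S13 and S23, compared with 25.1 and 31.8 in WT1 and WT2 (2.25, adjusted p = 0.023). INSL6, a relaxin family gene, was at 6.62 and 5.07 in S13 and S23 and was listed at 0 in WT1 and WT2. Its call ended with median-of-ratios scaling (adjusted p = 0.0612). LGI1 thus differed in the opposite order between S13 and S23 from CNTN2.

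Guidance and signalling genes were also among those called higher, which were 0.563% of all genes tested. EPHA7, an ephrin receptor, was at 34 and 39.4 in S13 and S23, compared with 13.9 and 14.6 in WT1 and WT2 (log2 fold change 1.30 with SE 0.15, adjusted p = 0.00409), and it was the 1 of 18 Eph and ephrin genes tested that was called. FGF12, an FGF family member that stays inside the cell, was at 7.36 and 7.62 in the pair labelled SOX21-/-, against 1.99 and 1.45 in wild type (1.65, adjusted p = 0.00813). CXCR4, a chemokine receptor, was at 13.6 and 23.1 in the pair labelled SOX21-/-, against 4.65 and 5.92 in wild type (1.58, adjusted p = 0.017). CXCR4 is also used as an endoderm marker, but SOX17, the defining endoderm gene, was listed at 0 in all 4 libraries and FOXA2 did not exceed 0.134. EGLN3, an oxygen-sensing hydroxylase, was at 57.9 and 85.4 in S13 and S23, compared with 24.2 and 21.3 in WT1 and WT2 (1.59, adjusted p = 0.012).

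Of 22 pan-neural progenitor genes tested, 2 were called higher and 1 lower, beside 0.563% and 1.91% of all genes tested. POU3F2, a neural POU factor, was at 16.2 and 20.3 in S13 and S23, compared with 8.36 and 8.30 in WT1 and WT2 (log2 fold change 1.03, adjusted p = 0.0251). VIM, an intermediate filament gene, was at 539 and 507 in the pair labelled SOX21-/-, against 382 and 415 in wild type (0.39, adjusted p = 0.0326). Antisense genes overlap 24.4% of the exonic bases of VIM. PROM1, a membrane protein of progenitor cells, was at 22.9 and 12.9 in the pair labelled SOX21-/-, against 43.5 and 43.1 in wild type (-1.28, adjusted p = 0.0459), a call lost with median-of-ratios scaling (adjusted p = 0.0808). Of the 13 SOX genes tested, 0 were called by limma, and 7 had an unadjusted p under 0.05 (53.8%, beside 20.9% of all genes tested). SOX13 was called higher with median-of-ratios scaling (adjusted p = 0.0335) and with the length and GC trend removed (adjusted p = 0.01). SOX1 came close, at 4.71 and 19.6 in S13 and S23, compared with 2.14 and 2.27 in WT1 and WT2 (1.76, adjusted p = 0.0654), and PAX6 was at 108 and 171 in the pair labelled SOX21-/-, against 115 and 123 in wild type (adjusted p = 0.662).

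The 254 genes called lower had a median log2 fold change of -0.82. They were long and rich in GC: their median transcript length was 3963 bases and their median GC content 57.1%, against 3410 bases and 48.9% over all genes tested, while the 75 higher calls had medians of 2845 bases and 52.0%. The median log2 fold change fell with transcript length, with 0.0289 in the shortest of 5 equal classes, -0.0956, -0.146 and -0.185 in the next ones and -0.207 in the longest. Over 5 such classes of GC content it was -0.103 in the lowest and -0.245 in the highest. At day 8 the same class medians lay between -0.0525 and 0.0479. Libraries of the same genotype also differed along both properties at day 4. In the class of short transcripts with low GC content the median log2 difference was 0.185 for S13 minus S23 and 0.112 for WT1 minus WT2. In the class of long transcripts with high GC content it was -0.24 and -0.142. The median log2 fold change between genotypes was 0.0367 and -0.453 in these 2 classes. With the trend on both properties removed, 109 genes were called (0.823%), 76 higher (0.574%) and 33 lower (0.249%). Under both that fit and median-of-ratios scaling, 58 of the 75 higher calls and 20 of the 254 lower calls held. The part of transcript length, GC content or library preparation in the lower calls was not tested.

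**Figure D3:**
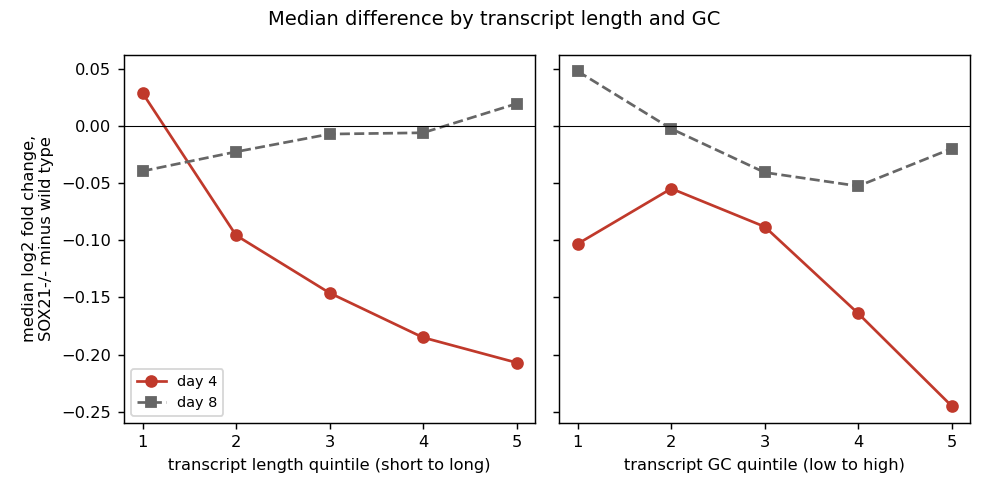
Median log2 fold change, SOX21-/- minus wild type, in 5 equal classes of the genes by transcript length (left) and GC content (right), with red circles for day 4 and grey squares for day 8. At day 4 the median goes down with length, with 0.0289 in the shortest and -0.207 in the longest class, and reaches -0.245 in the class with the highest GC content.

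The 222 genes with a mean rescaled TPM over 500 had a median log2 fold change of 0.113. Of them, 2 were called higher (0.901%) and 8 lower (3.6%), beside 0.563% and 1.91% of all genes tested. The 222 genes held 44.5% and 44.6% of the rescaled TPM in S13 and S23, compared with 41.5% and 40.4% in WT1 and WT2. Cytosolic ribosomal protein mRNAs, which are short and abundant, summed to 165800 and 171890 in the SOX21-/- libraries, against 149870 and 145490 in wild type. Of the 51 tested, 0 were called by limma and 31 had an unadjusted p under 0.05 (60.8%, beside 20.9% of all genes tested). A positive log2 fold change was found for 50 of the 51 (98%), beside 33.7% of all genes tested, and their median was 0.19.

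Among lower genes outside the forebrain lists, PCDHB5 and ANKS1B held under every scaling above. PCDHB5, a clustered protocadherin, was at 1.77 and 1.14 in S13 and S23, compared with 13.2 and 17.7 in WT1 and WT2 (log2 fold change -2.74 with SE 0.24, adjusted p = 0.000953). It also stayed called without any 1 of the day 4 libraries, with adjusted p up to 0.0293, but reads can be shared among the near-identical genes of its cluster. The PCDHB5 gap was already present before neural differentiation. At day 0 the wild-type libraries stood at 3.20 (WT1) and 4.89 (WT2), while S13 had 0.211 and S23 had 0.217. Whether the day 4 gap goes beyond the one at day 0 was not tested. The gap remained at day 8 (log2 fold change -2.27, adjusted p = 0.00054). ANKS1B, a synaptic scaffold gene, was at 3.95 and 1.22 in S13 and S23, compared with 16.0 and 17.4 in WT1 and WT2 (-2.41, adjusted p = 0.0138). MUC1, a membrane mucin, was at 1.86 and 12.7 in the pair labelled SOX21-/-, against 72.2 and 32.7 in wild type, with spread inside each pair (-2.99, SE 0.65, adjusted p = 0.0439), and its call was lost with median-of-ratios scaling (adjusted p = 0.0687).

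Further genes were among the largest decreases, and all lost their calls with median-of-ratios scaling. HOOK1, a microtubule adaptor, was at 8.06 and 4.94 in S13 and S23, compared with 33.5 and 23.1 in WT1 and WT2 (log2 fold change -1.98, adjusted p = 0.0396). ITGB5, an integrin chain, was at 69.1 and 35.9 in the pair labelled SOX21-/-, against 144 and 171 in wild type (-1.64, adjusted p = 0.0439). IGFBP5 and IGFBP3, secreted binding proteins of insulin-like growth factors, fell by 1.52 and 1.37 on the log2 scale (adjusted p = 0.0363 and 0.0396). CDHR2, a cadherin-related gene, and FNDC5, a membrane protein gene, had -1.84 and -1.36 (adjusted p = 0.0447 and 0.0315). Of 18 cadherin and adhesion genes tested, CDH11 (-1.14, adjusted p = 0.0439) and CDH4 (-0.91, adjusted p = 0.0343) were called lower and CNTN2 higher. Over all genes tested, 1.91% were called lower and 0.563% higher.

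Of 7 young neuron genes tested, 2 were called lower and 5 did not pass, beside 1.91% of all genes called lower. TUBB3, the neuronal tubulin, was at 68.4 and 102 in S13 and S23, compared with 162 and 181 in WT1 and WT2 (log2 fold change -1.02, adjusted p = 0.0251). STMN2, a microtubule regulator of growing axons, was at 7.05 and 9.53 in the pair labelled SOX21-/-, against 23 and 21.1 in wild type (-1.32, adjusted p = 0.0251), and its call missed the threshold with median-of-ratios scaling (adjusted p = 0.0503). A gene on the same strand overlaps 35.8% of the exonic bases of TUBB3. The summed level of all 18 neuron markers, TUBB3 included, was 182 and 198 in the SOX21-/- libraries, against 317 and 344 in wild type. At day 0, TUBB3 was already at 91.3 and 81.1 in S13 and S23, and at 86.8 and 79.7 in WT1 and WT2. STMN2 was at 20.4 and 31.3 in S13 and S23 at day 0, and at 18.1 and 20.9 in WT1 and WT2. Both genes were thus expressed before neural differentiation, and the number of neurons was not tested. NEUROG1 was listed at 0 in all 4 libraries.

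Genes of FGF signalling showed 1 higher and 2 lower calls among 22 tested, beside 0.563% and 1.91% of all genes tested. Their median log2 fold change was -0.47. FGFR1, the receptor at the highest level, was at 474 and 504 in S13 and S23, compared with 670 and 813 in WT1 and WT2 (-0.59, adjusted p = 0.0461). ETV5, a transcription factor switched on by FGF through ERK, was at 24.4 and 8.11 in the pair labelled SOX21-/-, against 43.5 and 55.1 in wild type (-1.71, adjusted p = 0.0363). Both calls were lost with median-of-ratios scaling (adjusted p = 0.13 and 0.0673). The higher one was FGF12.

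The SOX21-/- libraries differed from each other in this group. Of 12 ERK feedback and ETV genes, S23 was the lowest of the 4 libraries in 10, or 83.3%, against 29.5% of all genes tested. DUSP6, an ERK phosphatase, was at 23.6 in S13 and 2.56 in S23, against 37.2 in WT1 and 46.0 in WT2, and it did not pass the test (adjusted p = 0.112). SPRY4, a feedback inhibitor, was at 22.7 in S13 and 3.84 in S23, against 15.3 in WT1 and 26.2 in WT2, so that S13 lay among the wild-type values. FGF8, a ligand of the rostral and isthmic signalling centres, was at 38.2 in S13 and 9.26 in S23, against 48.5 in WT1 and 47.2 in WT2 (adjusted p = 0.147). These genes were picked out after their values were seen.

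**Figure D4:**
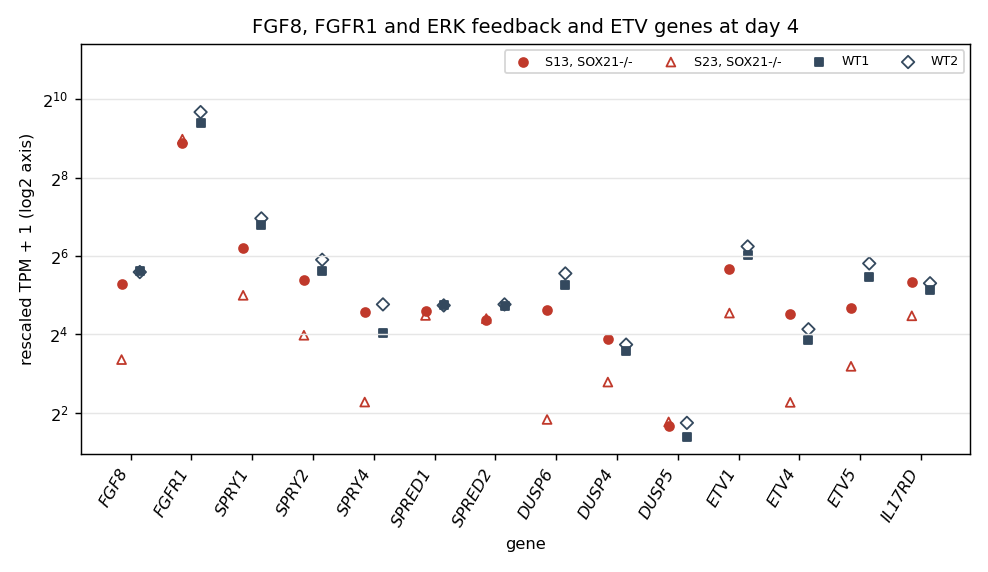
Rescaled TPM + 1 on a log2 axis in each day 4 library, for FGF8, FGFR1 and 12 ERK feedback and ETV genes, with symbols for S13, S23, WT1 and WT2 as in the plot of position genes. S23 is the lowest library in 10 of the 12 feedback and ETV genes, while S13 often lies near wild type.

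Semaphorins, plexins and other axon guidance genes held 8 lower and 2 higher calls among 36 tested, beside 1.91% and 0.563% of all genes tested. The other 26 did not pass, and the median log2 fold change was -0.46. An unadjusted p under 0.05 by limma was found for 18 of the 36 (50%), beside 20.9% of all genes tested. PLXNB1, a semaphorin receptor, was at 102 and 150 in S13 and S23, compared with 278 and 250 in WT1 and WT2 (-1.08, adjusted p = 0.0138). SEMA5B, a semaphorin, was at 44.2 and 41.1 in the pair labelled SOX21-/-, against 76.6 and 89.2 in wild type (-0.94, adjusted p = 0.00813). SEMA6C was at 8.63 and 11.2 in the pair labelled SOX21-/-, against 21.5 and 22.8 in wild type (-1.09, adjusted p = 0.0139). These 3 kept their calls with median-of-ratios scaling, and the other 5, SEMA6A, SEMA6D, NRP2, ROBO1 and PLXNA1, did not. With the length and GC trend removed, none of the 8 passed, with adjusted p from 0.0521 to 0.813.

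The 2 guidance genes called higher were secreted ligands. SEMA3E was at 11.7 and 8.68 in S13 and S23, compared with 1.80 and 1.99 in WT1 and WT2 (log2 fold change 1.94 with SE 0.24, adjusted p = 0.00657). NTN1, which encodes netrin, was at 10.3 and 16.5 in the pair labelled SOX21-/-, against 3.82 and 4.30 in wild type (1.48, adjusted p = 0.0324). Both kept their calls under both alternative scalings.

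Of 32 extracellular matrix genes tested, 6 were called lower and 26 did not pass, beside 1.91% of all genes called lower. An unadjusted p under 0.05 by limma was found for 16 of the 32 (50%), beside 20.9% of all genes tested. COL2A1, a fibrillar collagen gene also used in early neuroepithelium, was at 78.4 and 99.0 in S13 and S23, compared with 185 and 177 in WT1 and WT2 (log2 fold change -1.03 with SE 0.14, adjusted p = 0.00737). It kept its call with median-of-ratios scaling (adjusted p = 0.0154) and with the length and GC trend removed (adjusted p = 0.0356). The calls of FN1, LAMA5, COL5A1, FBN2 and NID1 were lost in both. COL18A1, a basement membrane collagen gene, was called higher with that trend removed (adjusted p = 0.0207). FN1, which encodes fibronectin, was at 30.5 and 25.9 in S13 and S23, compared with 47.2 and 60.7 in WT1 and WT2 (-0.91, adjusted p = 0.0251). LAMA5, a laminin chain of basement membranes, was at 56.1 and 87.3 in the pair labelled SOX21-/-, against 124 and 134 in wild type (-0.87, adjusted p = 0.042).

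Cholesterol synthesis genes had negative log2 fold changes in 24 of 25 (96%), beside 66.3% of all genes tested, with a median of -0.59. An unadjusted p under 0.05 by limma was found for 16 of the 25 (64%), beside 20.9% of all genes tested. After adjustment 1 was called lower (4%), beside 1.91% of all genes tested. MVD, an enzyme of the mevalonate pathway, was at 46.4 and 49.1 in S13 and S23, compared with 74.5 and 94.4 in WT1 and WT2 (log2 fold change -0.80, adjusted p = 0.0179), and the call missed the threshold with median-of-ratios scaling (adjusted p = 0.0501). S13 was the lowest of the 4 libraries in 23 of the 25 (92%), beside 38.9% of all genes tested. HMGCS1, near the start of the pathway and picked out after its values were seen, was at 119 in S13 and 240 in S23, against 295 in WT1 and 312 in WT2 (adjusted p = 0.0877).

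Of 12 retinoic acid genes tested, 2 were called lower, beside 1.91% of all genes called lower. CRABP1, which binds retinoic acid in the cytoplasm, was at 133 and 61.4 in S13 and S23, compared with 214 and 234 in WT1 and WT2 (log2 fold change -1.30, adjusted p = 0.0396). RXRA, a nuclear receptor, was at 24.4 and 29.9 in the pair labelled SOX21-/-, against 45.0 and 43.9 in wild type (-0.70, adjusted p = 0.0363). Both calls were lost with median-of-ratios scaling (adjusted p = 0.0736 for each gene). An antisense gene overlaps 47.2% of the exonic bases of CRABP1.

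Several groups showed few calls or 0, and over all genes tested 0.563% were called higher and 1.91% lower. Of 20 NOTCH pathway genes, 11 hedgehog genes, 30 DNA replication genes, 25 mitosis genes, 21 unfolded protein response genes and 34 nuclear genes of the respiratory chain, 0 were called by limma, and their median log2 fold changes ran from -0.40 for hedgehog to 0.11 for the respiratory chain. At an unadjusted p under 0.05 these lists held 6 NOTCH, 3 hedgehog, 5 replication, 5 mitosis, 3 unfolded protein response and 9 respiratory chain genes, beside 20.9% of all genes tested. A positive log2 fold change was found for 29 of the 34 respiratory chain genes (85.3%), beside 33.7% of all genes tested. Of 19 fatty acid synthesis genes tested, 0 were called by limma and 6 had an unadjusted p under 0.05 (31.6%). Among 21 BMP and TGF-beta genes, ID4, a target of BMP signals, was the 1 called, at 7.17 and 5.93 in S13 and S23, compared with 11.3 and 13.3 in WT1 and WT2 (log2 fold change -0.82, adjusted p = 0.0459). Among 17 p53 and apoptosis genes, BTG2, a growth-restraining gene, was called lower, at 6.25 and 3.90 in the pair labelled SOX21-/-, against 12.5 and 13.7 in wild type (-1.24, adjusted p = 0.0269). Both calls were lost with median-of-ratios scaling (adjusted p = 0.0895 and 0.0612). Of 29 glycolysis and hypoxia genes, EGLN3 was called higher, and DDIT4, an inhibitor of mTOR signalling, was called lower, at 16.0 and 23.5 in S13 and S23, compared with 40.9 and 49.7 in WT1 and WT2 (-1.18, adjusted p = 0.0251). An antisense gene overlaps 41.2% of the exonic bases of DDIT4, and its call missed the threshold with median-of-ratios scaling (adjusted p = 0.0503). Of 28 chromatin regulators, BPTF, a remodelling subunit, was called lower (-0.46, adjusted p = 0.0396), also lost with that scaling (adjusted p = 0.135). Negative log2 fold changes were found for 27 of the 28 (96.4%), beside 66.3% of all genes tested. The list's median was -0.26, and -0.0064 with the length and GC trend removed.

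Markers of other cell types gave few calls, and over all genes tested 0.563% were called higher and 1.91% lower. Of 8 pluripotency genes tested, L1TD1 was called lower, at 9.72 and 4.70 in S13 and S23, compared with 15.8 and 17.3 in WT1 and WT2 (log2 fold change -1.17, adjusted p = 0.0459). Its call was lost with median-of-ratios scaling (adjusted p = 0.0808) and with the length and GC trend removed (adjusted p = 0.0882). POU5F1 was at 27.9 and 35.2 in the pair labelled SOX21-/-, against 23.6 and 37.3 in wild type (adjusted p = 0.915). The summed level of the 17 pluripotency genes was 432 and 415 in the SOX21-/- libraries, against 545 and 571 in wild type. Of 8 neural crest and placode genes, NGFR, a neurotrophin receptor, was called lower, at 10.4 and 11.9 in the pair labelled SOX21-/-, against 27.8 and 34.8 in wild type (-1.40, adjusted p = 0.0138), while SOX10 did not exceed 0.376. The NGFR call held with median-of-ratios scaling (adjusted p = 0.0335) but not with the length and GC trend removed (adjusted p = 0.0521). Antisense genes overlap 27.1% of the exonic bases of NGFR. The summed level of the 15 crest and placode genes was 93.2 and 88.3 in the SOX21-/- libraries, against 124 and 144 in wild type. PRRX1, a mesenchyme gene, was called higher at 3.06 and 2.27 in S13 and S23, compared with 0.0625 and 0.0585 in WT1 and WT2 (1.78, adjusted p = 0.0327). LUM and POSTN, 2 defining fibroblast genes, were listed at 0 in all 4. Of 7 fibroblast and mesenchyme genes tested, 5 had a positive log2 fold change (71.4%), beside 33.7% of all genes tested, and the list's median was 0.27. The 12 in the table summed to 466 in S13 and 289 in S23, against 301 in WT1 and 328 in WT2. The 14 mesoderm genes summed to 28.4 in S13 and 11.7 in S23, against 10.3 in WT1 and 11.3 in WT2, so that S13 was the highest library in both sums. The part of other cell types in the results was not tested.

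Many of the genes called at day 4 were followed to day 8 in the same fit. At day 8, 645 genes were called (4.84%), 324 of them higher (2.43%) and 321 lower (2.41%) in SOX21-/- libraries. Of the 75 genes higher at day 4, 61 had the same sign at day 8 and 31 were also called higher there. Of the 254 lower genes, 141 had the same sign (55.5%) and 34 were also called lower. Calls of the opposite direction at day 8 were held by 5 of the 75 and 16 of the 254. Over all genes tested, 6864 of 13333 had the same sign on both days (51.5%). The median log2 fold change at day 8 was 0.64 for the 75 genes and -0.06 for the 254. The change in effect, day 8 minus day 4, was called for 307 of all genes tested (2.3%), for 15 of the 75 and for 66 of the 254. The day 4 effect enters both that change and the choice of the genes, so these shares describe the choice as well.

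**Figure D5:**
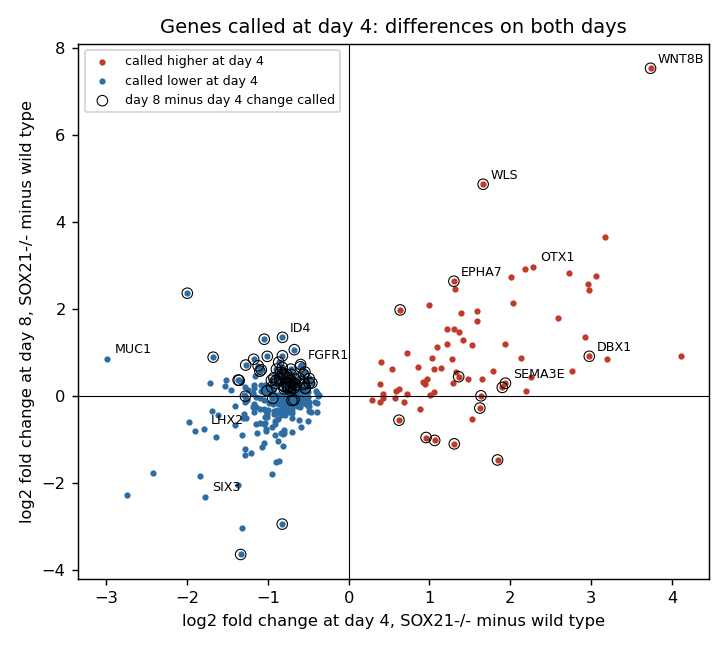
Log2 fold change, SOX21-/- minus wild type, at day 4 on the x axis and at day 8 on the y axis for the 329 genes called at day 4, red where higher and blue where lower at day 4, with black circles where the change from day 4 to day 8 was called. WNT8B and WLS lie furthest up at day 8, and most of the circled genes lower at day 4 lie above 0 at day 8.

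WNT8B was at 372 and 357 in S13 and S23 at day 8, compared with 1.86 and 0.380 in WT1 and WT2, a log2 fold change of 7.52 (adjusted p = 1.59e-05). The gap between S13 and S23 seen at day 4 was thus small at day 8. OTX1 was at 106 and 121 in the pair labelled SOX21-/-, against 15.4 and 12 in wild type, at day 8 (2.97, adjusted p = 0.00054), and SIX3 was at 14.2 and 9.18 in the pair labelled SOX21-/-, against 53.6 and 69.7 in wild type (-2.32, adjusted p = 0.000267). DBX1 had a log2 fold change of 0.91 at day 8 (adjusted p = 0.0859), with 14.5 and 10.6 in S13 and S23, compared with 7.88 and 4.73 in WT1 and WT2.

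Some of the genes with wide differences at day 8 had none that passed at day 4. HES3, a repressor of the NOTCH-linked HES family marking the midbrain and isthmus, was at 109 and 173 in S13 and S23 at day 4, compared with 90.6 and 101 in WT1 and WT2 (adjusted p = 0.297). At day 8 it was at 51.4 and 86.7 in the pair labelled SOX21-/-, against 1.42 and 1.30 in wild type (log2 fold change 4.84, adjusted p = 6.09e-06). FZD5, a WNT receptor of the rostral forebrain and eye field, was at 121 and 155 in S13 and S23 at day 4, compared with 164 and 189 in WT1 and WT2 (adjusted p = 0.356), and at day 8 at 15.9 and 9.70 in the pair labelled SOX21-/-, against 203 and 240 in wild type (-4.04, adjusted p = 5.5e-06). HES3 and FZD5 were chosen after their values were seen.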

How the data were processed

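Poly(A) RNA of H9 cells was sequenced at days 0, 4 and 8. The authors deposited 1 TPM value per gene and library, on the hg38 build, and the submitters' processing notes name CASAVA 1.7 and Salmon 0.8.2. The annotation release and strand setting, not given in the sources used here, remain unknown. The library protocol names 3 sequencers and does not assign them to libraries. TPM keeps no depth, so counting precision is unknown.

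TPM of nuclear protein-coding genes was rescaled to 1000000 per library. Genes with a rescaled TPM of at least 1 in at least 2 of the 4 day 4 libraries were kept, and log2(rescaled TPM + 1) was fitted with limma 3.58.1 in R 4.3.3, with 1 mean for each of the 6 groups of 2 libraries (6 residual degrees of freedom), a mean-variance trend and Benjamini-Hochberg adjustment at 0.05. Using all 12 libraries shares their estimate of the spread. An exact permutation test of 2 against 2 libraries cannot go below p = 0.333 (two-sided), so none was run. The script was tested on simulated data. Gene coordinates, transcript lengths (13238 genes) and GC content came from GENCODE annotation on GRCh38, matched by gene ID, and promoters from RefSeq tables. The genes named were the 15 largest changes each way among genes called with a mean of at least 5 in the higher group, SOX21, WNT8B, the called members of 38 gene lists, and uncalled members of the position, WNT and cell type lists. DUSP6, SPRY4, HMGCS1, SOX13 and COL18A1 fall outside this rule and, like FGF8, HES3 and FZD5, were chosen after their values were seen. A few genes taken by this rule are not reported here. The genes and lists were chosen with earlier results of these data known. Alternatives covered the pseudocount, filters, scaling, moderation, the libraries in the fit and a replicate block. Removing a length and GC trend, and joining median-of-ratios scaling with the day 4 and 8 libraries alone, were chosen after seeing the data.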

Additional observations from a re-analysis of the deposited data

Results flagged for a closer look

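For 17 of the genes named above, the difference between libraries labelled SOX21-/- and wild type was itself different at day 8 and at day 4, by a limma contrast of both days with an adjusted p under 0.05. Values are the day 8 minus the day 4 log2 fold change. Among genes higher at day 4, the effect grew for WNT8B by 3.79 (adjusted p = 0.0226), for WLS by 3.20 (adjusted p = 0.00683) and for EPHA7 by 1.33 (adjusted p = 0.0123). The corresponding change was -2.07 for DBX1 (adjusted p = 0.0241) and -1.65 for SEMA3E (adjusted p = 0.0331).

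Among genes lower at day 4, the change was positive for ID4 (2.16), DDIT4 (2.02), SEMA6D (1.73), FNDC5 (1.71), PLXNB1 (1.68), LAMA5 (1.64), FGFR1 (1.31), SEMA6A (1.17), ROBO1 (0.887), SEMA5B (0.881), BPTF (0.751) and SFRP2 (0.705), with adjusted p from 0.00363 to 0.043. ID4, DDIT4, LAMA5 and FGFR1 were called higher at day 8, with log2 fold changes of 1.34, 0.84, 0.77 and 0.72. In these 12 genes the day 4 call is part of the difference, and of the 12, SEMA5B and PLXNB1 kept that call with median-of-ratios scaling.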

How the results depend on the processing

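The counts of genes called moved between settings. Of the 73 called genes that the naming rule took, 30 were called higher in SOX21-/- libraries and 43 lower. Each kept its sign under every alternative it entered, but many alternatives could not change a sign. Filters, moderation and the libraries of other days leave the day 4 difference as it was. Leaving out 1 day 4 library cannot turn it either, since the groups of these genes did not overlap. The total of 329 became 131 with no filter on low values, 107 with median-of-ratios scaling, 206 with quantile normalization, 215 with no variance trend, 31 with the day 4 libraries alone, 109 with the length and GC trend removed and 194 with median-of-ratios scaling of the day 4 and 8 libraries. In those same settings, the 254 lower calls became 75, 30, 95, 162, 13, 33 and 73, and they became 394 with the day 4 and 8 libraries. The 75 higher calls became 18 with the day 4 libraries alone and 121 with median-of-ratios scaling of the day 4 and 8 libraries. Leaving out 1 library at a time gave totals from 5 to 416, higher counts from 4 to 92 and lower counts from 1 to 325. The lowest came without WT2 at day 4, where the lone wild-type library is assumed to vary like the other groups. With median-of-ratios scaling 26 of those 30 higher genes and 11 of those 43 lower genes kept their calls. The SOX21 log2 fold change, never called, turned positive with median-of-ratios scaling (0.0492), with that scaling on the day 4 and 8 libraries (0.0624) and with the length and GC trend removed (0.0683), and ran from -0.178 to 0.00511 over single libraries left out, the last value without S23 at day 4. The cause of these moves was not tested.

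A replicate block on the line label, which the labels do not describe as a shared culture, gave 331 genes called at day 4, that is, 75 higher genes at day 4 and 256 lower genes at day 4, with a consensus correlation of -0.0103. It changed no call among those 73 genes. The unknown depth limits what can be said of genes near a TPM of 1.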
